A study of Mus musculus with 26 samples.

Results

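The regions described here are the ChIRP-seq peaks around the gene of the long noncoding RNA MaTAR25 (1200007C13Rik, ENSMUSG00000087684). They were chosen by position alone, as the peaks on mouse chromosome 2 in the 15 Mb that start at position 160000000 (GRCm38), a window that holds the MaTAR25 gene at 167827693 to 167833646 on the minus strand. The window held 445 of the 61311 peaks of the 4T1 odd pool, 623 of the 76806 peaks of the 4T1 total pool and 581 of the 70329 peaks of the NDL total pool. No peak lay across an edge of the window. Because the gene is on the minus strand, upstream of MaTAR25 means higher coordinates throughout.

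ChIRP-seq pulls a chosen RNA out of crosslinked chromatin with biotinylated oligos complementary to it and sequences the DNA that comes along. The 4T1 pulldowns came from 4T1 cells, a BALB/c mouse mammary tumor cell line with the genotype label wild type, and the NDL pulldowns from cells labelled primary NDL cells of the FVB strain, whose genotype label reads MMTV-PyMT. The study's own text ties this experiment to cNeu, a cultured MMTV-Neu-NDL line, so the labels and the text differ on the source. The total pool held all 14 MaTAR25 oligos and the odd pool the 7 with odd numbers. Each list was called by the authors from 2 libraries pooled, against a pulldown of Ppib (cyclophilin B) RNA, at 50-fold or more, so a list carries no replicate error. Expression was read from poly(A) RNA-seq of 2 4T1 control libraries and 7 MaTAR25 KO libraries, labelled MaTAR25-/-, of which 3 belonged to KO1 and 4 to KO2. In the KO clones CRISPR/Cas9 with a pair of guides had removed DNA at the MaTAR25 start site. The controls had received a guide against Renilla luciferase. By the paper's methods KO and control lines were both grown from single cells, so a difference between KO and control can also hold differences between clones. The labels do not say whether libraries of one group came from separate cultures, so the p-values below measure only the spread between these libraries.

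A long noncoding RNA can act on genes beside its own locus, where it is made, or on genes elsewhere in the genome after it has left that locus. In a pulldown the DNA of the RNA's own gene is usually recovered, since transcripts still being made are tethered to it, and oligos can also pair directly with DNA of matching sequence. The end of mouse chromosome 2 corresponds to a stretch of the long arm of human chromosome 20 that is often gained in breast cancer.

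The oligos are the reagents of the pulldowns, so their sequences come first. MaTAR25 has 2 exons, exon 1 from 167832931 to 167833646 and exon 2 from 167827693 to 167829431. Of the 14 oligos, 2 lay in exon 1 and 12 in exon 2, and each 20-base oligo lay on the plus strand of GRCm38, opposite to the transcript. The following 4 oligos, numbers 2, 4, 5 and 12, are those with the longest matches in the high-scoring peaks described below, and they are given whole. Numbers 2, 4 and 12 are even and were not in the odd pool.
MaTAR25-oligo2: aagagtctgacttcttggca
MaTAR25-oligo4: caggtggtggagatggaatg
MaTAR25-oligo5: gaaaggaaacacccaggtca
MaTAR25-oligo12: aatagggagaagggaggctc

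Away from the gene, some of the highest-scoring peaks of the window held a long exact match to an oligo. Among the 20 highest members, a match of 14 or more bases was in 6 of the odd pool, 7 of the 4T1 total pool and 6 of NDL. These counts include the peaks on MaTAR25. The next 6 sites were picked for such a match. Each is given as 30 bases of GRCm38 read on the strand that carries the oligo's letters, with the matching run in capitals.
Sulf2 intron, chr2:166085347-166085376, plus strand, 18 bases of oligo 2: gtgacgAAGAGTCTGACTTCTTGGttatcc
Gm11476, chr2:167565229-167565258, plus strand, 16 bases of oligo 2: gtcctctGAGTCTGACTTCTTGGgcgagat
Slc12a5 exon, chr2:164994091-164994120, plus strand, 15 bases of oligo 4: gaggtggAGGTGGTGGAGATGGtaggtccc
Hnf4a transcript end, chr2:163553153-163553182, plus strand, 15 bases of oligo 4: gcctggaTGGTGGAGATGGAATtacccagc
near 9430093N23Rik, chr2:169291822-169291851, minus strand, 15 bases of oligo 5: tgtgaccaAAAGGAAACACCCAGtaaaaga
Tshz2 intron, chr2:169951699-169951728, plus strand, 15 bases of oligo 12: actcaggAGGGAGAAGGGAGGCagtcagga

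The MaTAR25 gene itself carried the top peak of every list. The peak over exon 2 ranked 1 in each, with a HOMER peak score of 14396.3 in the 4T1 odd pool (167827878 to 167829841), 7720.7 in the 4T1 total pool (167827384 to 167829742) and 6677.5 in the NDL total pool (167827619 to 167829889). Scores can be ranked within a list but not compared between lists, because their scaling is not stated in the sources used here. A second peak lay over the start site and exon 1. It scored 1171.1 and ranked 465 in the odd pool, 671.9 and 324 in the 4T1 total pool, and 784.5 and 72 in the NDL total pool. Together these peaks covered the sites of all 14 oligos in all 3 lists, including the 7 sites whose oligos were not in the odd pool. The start-site peak also covered the genomic sites of the downstream guide used for the knockout, in exon 1, and of 2 of the 3 upstream guides, and the site of the remaining upstream guide lay within the NDL peak only.

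**Figure D1:**
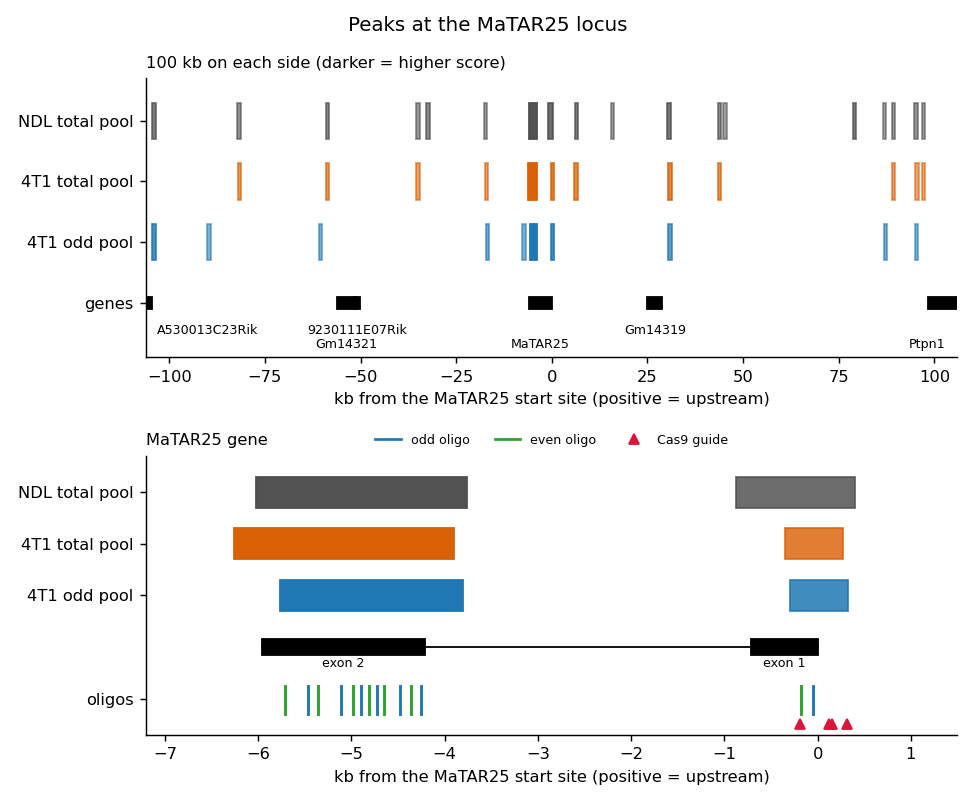
Peaks of the 3 lists at the MaTAR25 locus against distance from its start site in kb (positive is upstream), with 100 kb on each side in the upper panel, where darker boxes have higher scores, and the gene with its 2 exons, the odd and even oligos and the Cas9 guides in the lower panel. The exon 2 peak and the start-site peak appear in all 3 lists, and the NDL total pool has the most other peaks in the upper panel, 16 against 10 and 8.

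Within 100 kb on either side of the gene, measured between the nearest ends of peak and gene, the 4T1 total pool held 10 further peaks, the odd pool 8 and the NDL total pool 16. Their scores ran from 20.4 to 416.0, from 21.8 to 713.8 and from 15.2 to 342.6, all below those of the start-site peak of the same list. The peak 30.4 kb upstream, nearest to the lincRNA gene Gm14319, was present in all 3 lists. It scored 217.3 in the odd pool (rank 6504), 416.0 in the 4T1 total pool (rank 1473) and 342.6 in the NDL total pool (rank 1741). It held a 13-base match to oligo 4, which was not in the odd pool. Other peaks of this neighbourhood were not in every list. A peak 5.90 kb upstream was called with both total pools, at 231.5 in 4T1 (rank 4929) and 220.2 in NDL (rank 4383), and not with the odd pool. At the transcript end of A530013C23Rik, 97.8 kb downstream, a peak scored 713.8 in the odd pool (rank 1300) and 227.6 in the NDL pool (rank 4099) and was not called in the 4T1 total pool.

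All 10 of the 4T1 total pool peaks in this neighbourhood overlapped an NDL peak, and 3 overlapped an odd-pool peak. In the other direction 10 of the 16 NDL peaks overlapped a 4T1 total pool peak and 5 an odd-pool peak. Of the 8 odd-pool peaks, 3 overlapped the 4T1 total pool and 5 the NDL pool. A match of 12 or more bases to an oligo was present in 2 of the 10, 1 of the 8 and 3 of the 16 peaks.

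The window as a whole held more peaks per Mb than the rest of chromosome 2 in every list. The density was 29.7 peaks per Mb in the odd pool against 24.6 on the rest of chromosome 2 and 23.9 on the other chromosomes. For the 4T1 total pool these values were 41.5, 30.9 and 29.9, and for the NDL total pool 38.7, 28.2 and 27.4. The window thus held 0.726%, 0.811% and 0.826% of the peaks of the lists in 0.586% of the bases of the genome. Among 168 tiles of 15 Mb laid over the genome, 18 exceeded the window in the odd pool, 6 in the 4T1 total pool and 3 in the NDL total pool, where the densest tiles reached 34.9, 44.7 and 44.1 peaks per Mb.

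The base composition of the window moved with this density. GC content was 46.9% in the window and 41.6% on the rest of chromosome 2. Member peaks had a median GC content of 47.2%, 48.2% and 48.9% in the odd, 4T1 total and NDL total pools, against 43.2%, 44.2% and 44.4% in the peaks outside the window. The part of GC content in the density was not tested.

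The 1 Mb of the window that holds MaTAR25 was not the densest in either 4T1 list. It held 31 odd-pool peaks, and 5 of the 15 bins of 1 Mb held more. It held 44 peaks of the 4T1 total pool, and 6 bins held more. Only for the NDL total pool, with 48 peaks, did no bin hold more. Over the 15 bins the counts ran from 20 to 44, from 30 to 56 and from 24 to 48 in the 3 lists. The bin of MaTAR25 also had the highest GC content, 50.8%. Across these 15 bins of 1 chromosome, which differ in base composition and gene content, Spearman's rho between peaks and GC content was 0.40 in the odd pool, 0.35 in the 4T1 total pool and 0.86 in the NDL total pool.

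Read by distance from MaTAR25, the density with both sides together was highest in the nearest 100 kb in the total pool lists. In the NDL total pool it was 80 peaks per Mb within 100 kb, leaving out the peaks on the gene, 43.8 from 100 to 500 kb, 36 from 500 kb to 1 Mb, 39.5 from 1 to 2 Mb, 36.8 from 2 to 4 Mb and 38.0 beyond. In the 4T1 total pool it was 50, 43.8, 35, 38.5, 43 and 41.8 in the same bins, so that it did not fall steadily. In the odd pool it was 40, 40, 19, 33.5, 30.3 and 28.0. The nearest bin rests on 16, 10 and 8 peaks in the NDL total, 4T1 total and odd pools. The peaks within 100 kb were spread over both sides, with 10 upstream and 6 downstream in NDL, 6 and 4 in the 4T1 total pool, and 3 and 5 in the odd pool. In the 4T1 total pool the downstream 100 kb, at 40 peaks per Mb, lay below the downstream bin of 2 to 4 Mb, at 42.

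**Figure D2:**
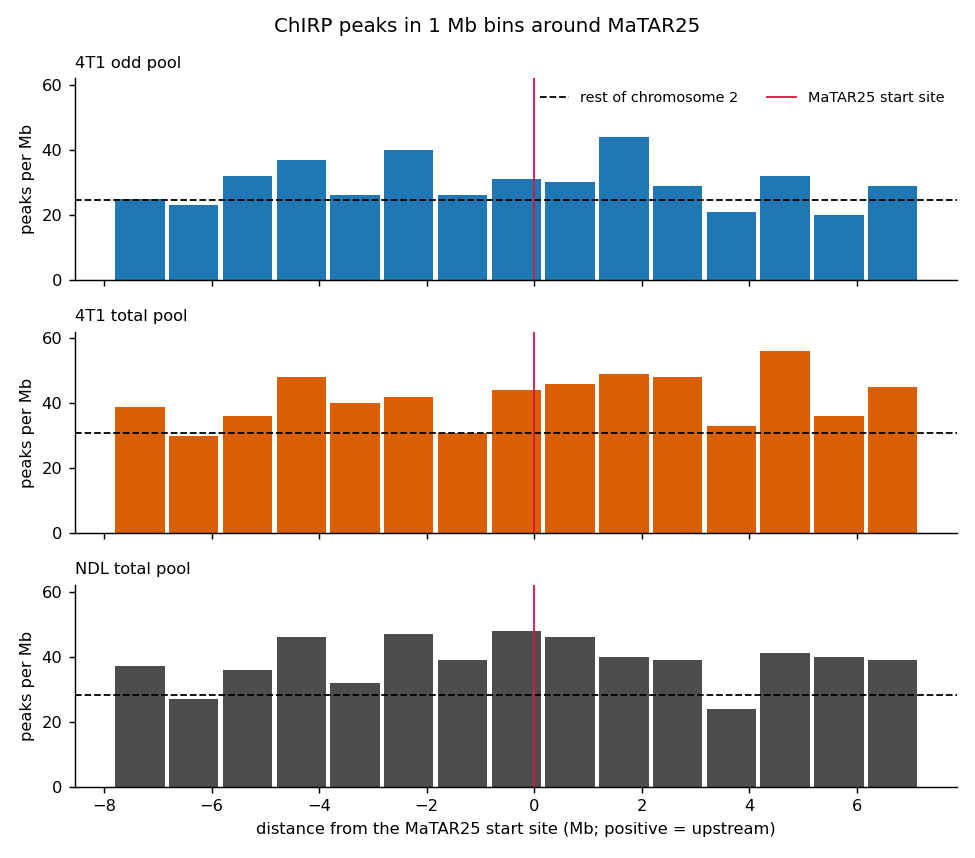
Number of peaks in each of the 15 bins of 1 Mb (vertical axis, peaks per Mb) against distance of the bin from the MaTAR25 start site in Mb (positive is upstream), 1 panel for each list; the dashed line is the density of the list on the rest of chromosome 2 and the red line the start site. The bin of MaTAR25 holds 31, 44 and 48 peaks in the odd, 4T1 total and NDL total pools, and bins several Mb away are as high in the 4T1 lists.

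Within 1 Mb of the gene lay 61 of the 445 odd-pool members, or 13.7% (95% Wilson interval 10.8 to 17.2). The same share was 13.2% (10.7 to 16.0) in the 4T1 total pool, with 82 peaks, and 15.3% (12.6 to 18.5) in the NDL total pool, with 89 peaks. The intervals of the 3 lists overlap, and here as elsewhere they cover counting error only. The shares are to be read against the stretch they cover, 1 Mb on each side of the gene in a window of 15 Mb. Each count includes the 2 peaks on the gene. Neighbouring members lay a median of 22.7 kb apart in the odd pool, 16.1 kb in the 4T1 total pool and 16.2 kb in the NDL total pool, and the longest stretches without a peak were 217, 123 and 147 kb.

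Off the gene, peak scores changed little with distance. The median rank of a member, as a percentage of its whole list where low is a high score, was 42.8 within 100 kb, 35.9 from 100 to 500 kb and 48.6 beyond 4 Mb in the 4T1 total pool. In the NDL total pool these medians were 47.9, 35.3 and 53.5, and in the odd pool 63.1, 36.1 and 51.9. With both sides together the best median rank was thus found from 100 to 500 kb in all 3 lists. This was the upstream side in the total pools, where the 100 to 500 kb bin had a median rank of 27.9 in 4T1 and 31.0 in NDL. Downstream the same bin stood at 52.7 and 53.1, and the nearest 100 kb at 45.6 and 34.4. Spearman's rho between score and distance was -0.127 in the odd pool (445 peaks), -0.106 in the 4T1 total pool (623 peaks) and -0.110 in the NDL total pool (581 peaks), over peaks of 1 chromosome that share their libraries. Without the peaks on the gene it was -0.115, -0.097 and -0.101.

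**Figure D3:**
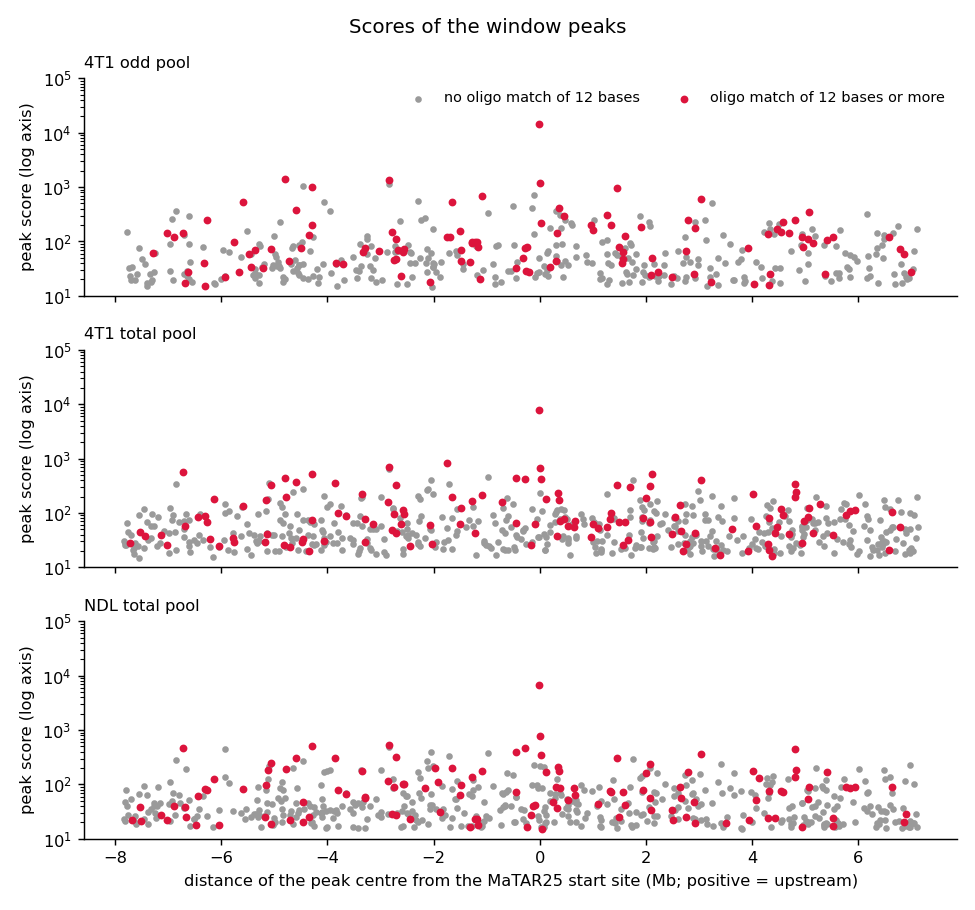
Score of every member (logarithmic vertical axis) against distance of its centre from the MaTAR25 start site in Mb (positive is upstream), 1 panel for each list, with members that hold an oligo match of 12 bases or more in red. The exon 2 peak stands alone at 14396.3, 7720.7 and 6677.5 in the odd, 4T1 total and NDL total pools, and red points lie along the whole window.

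High scores were found across the window. Outside the gene, the highest member of the 4T1 total pool lay in an intron of Sulf2, an extracellular enzyme that trims heparan sulfate, about 1.7 Mb downstream (166085092 to 166085845). It scored 822.2 and ranked 123. It overlapped an odd-pool peak of score 122.8 (rank 12037) and no NDL peak, and it holds the 18-base match to oligo 2 shown above, an even-numbered oligo. Slc12a5, a potassium and chloride transporter of neurons, held both of the next members. The exon peak scored 701.3 in the 4T1 total pool (rank 271), 1379.1 in the odd pool (rank 314) and 530.7 in NDL (rank 503). In the odd pool it holds the match to oligo 4 shown above, although oligo 4 was not in that pool. The intron peak scored 642.4 (rank 368), 1136.5 (rank 502) and 493.1 (rank 632), although its longest match to any oligo was 10 bases.

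Further high members of the 4T1 total pool lay at the transcript end of Hnf4a, a transcription factor of liver and gut, at 523.9 (rank 791), and in Arfgef2, an exchange factor of vesicle traffic, at 456.4 (rank 1162). Both were shared with NDL, at 509.6 (rank 573) and 373.3 (rank 1398), and the Hnf4a peak also with the odd pool, at 998.2 (rank 674). The odd-pool peak at Hnf4a holds a match to oligo 4, which was not in that pool. The noncoding gene Gm11476 carried a peak of 418.7 (rank 1452) in 4T1 and 468.5 (rank 750) in NDL. By contrast the peak in the Tshz2 intron, at 527.1 (rank 774), and the peak in Ift52, a protein of cilia, at 438.0 (rank 1300), overlapped odd-pool peaks and no NDL peak. The Ift52 peak was among the highest of the odd pool, at 1415.2 (rank 291).

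Of the 623 members of the 4T1 total pool, 417 overlapped an NDL peak by at least 1 bp, which is 66.9% (95% Wilson interval 63.2 to 70.5), against 66.4% of the peaks outside the window. The 417 NDL members that overlapped a 4T1 total pool peak were 71.8% of 581, against 72.5% outside. Sharing with the odd pool was lower, at 34.0% of the 4T1 total pool members (37.7% outside) and 28.6% of the NDL members (33.5% outside). Of the 445 odd-pool members, 211 (47.4%) overlapped a 4T1 total pool peak and 207 (46.5%) overlapped neither other list. The total pools shared more members across the 2 cell sources than either shared with the odd pool within the same window.

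Members found in all 3 lists had the higher scores. In the 4T1 total pool the median score was 75.0 for the 140 members in all 3 lists, 49.4 for those with 1 other list and 29.0 for the 134 found in that list alone. The same medians were 112.3, 74.2 and 30.9 in the odd pool and 57.8, 45.7 and 23.8 in the NDL total pool. The median over all members was 45.2 in the odd pool, 46.7 in the 4T1 total pool and 39.8 in NDL, against 42.9, 42.0 and 38.2 outside the window.

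An exact match of 12 or more bases to a MaTAR25 oligo, on either strand, was present in 111 odd-pool members, or 24.9% (95% Wilson interval 21.2 to 29.2), against 23.8% of the peaks outside the window. In the 4T1 total pool it was present in 132 members, or 21.2% (18.2 to 24.6; 24.2% outside), and in NDL in 123, or 21.2% (23.6% outside). Regions of the same length 10 kb away from the members held such a match in 7, 13 and 14 cases, or 1.57%, 2.09% and 2.41%. Matches to the Ppib oligos of the control pulldown went the other way, with 1, 2 and 1 members against 6, 8 and 9 of the regions 10 kb away. Peaks outside the window held them in 0.327%, 0.316% and 0.334%, against 0.813%, 0.843% and 0.913% of regions 10 kb away. The lists were called against that same pulldown, so this contrast is not a separate control. The members thus held MaTAR25 oligo matches at about the same share as peaks elsewhere in the genome, and far more often than the DNA beside them.

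The matches were concentrated in the high-scoring members. Of the 20 highest-scoring members, 12 in the odd pool, 14 in the 4T1 total pool and 14 in NDL held a match. Of the 100 highest these counts were 44, 41 and 37. In each list both counts include the 2 peaks on MaTAR25, which hold the oligos' own sites and so had to match. Among members below the 100 highest the share was 19.4% (67 of 345), 17.4% (91 of 523) and 17.9% (86 of 481). Distance from MaTAR25 made little difference, with 24.6% of odd-pool members within 1 Mb and 25.0% beyond, 23.2% and 20.9% in the 4T1 total pool, and 23.6% and 20.7% in NDL. The shares within 1 Mb also include the peaks on MaTAR25.

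Which oligos matched followed the pool. Of the odd-pool members, 83 held a match to an odd-numbered oligo and 31 to an even-numbered one, against 5 with an even match among the regions 10 kb away. Among the 411 members of the 4T1 total pool that overlapped no odd-pool peak, 2 (0.487%) held a match to an odd oligo and 64 (15.6%; 95% Wilson interval 12.4 to 19.4) to an even one. Among the 212 that overlapped an odd-pool peak, 42 (19.8%; 15.0 to 25.7) held an odd match and 26 (12.3%) an even one. The NDL members showed the same split, with 7 odd and 58 even matches in the 415 without an odd-pool peak, and 34 and 26 in the 166 with one. Oligo 4, an even-numbered oligo, repeats the triplet TGG. Runs of 4 or more TGG units, or of CCA on the other strand, were present in 31 members of the 4T1 total pool (4.98%; 4.13% outside the window), 38 NDL members (6.54%; 5.99% outside) and 4 odd-pool members (0.899%; 0.877% outside). The regions 10 kb away held such a run in 3, 1 and 1 cases.

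By the deposited annotation, 321 of the 623 members of the 4T1 total pool were intergenic, or 51.5% (95% Wilson interval 47.6 to 55.4), against 46.4% outside the window. Introns held 234 (37.6%, against 42.1% outside), exons 27, promoters 21 and transcript ends 20. Counted by gene models, 294 members (47.2%) lay in a gene. The long genes took many of them. Ptprt, a receptor phosphatase of 1139 kb, held 32 peaks of the 4T1 total pool, 29 of the odd pool and 25 of NDL. Tshz2, a zinc finger transcription factor, held 29, 17 and 23, and Dok5, a docking protein of receptor kinases, 8, 7 and 9. Per 100 kb of gene the 4T1 total pool had 2.81 peaks in Ptprt, 6.61 in Tshz2 and 5.41 in Dok5, and 9.61 in the imprinted Gnas gene, which encodes a G protein subunit and held 6 peaks.

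Of the 14 genes of the window with the most peaks, 4 were expressed highly enough to be tested. These were Zmynd8 (control mean 31.7 CPM), Gnas (38.8), Zhx3 (10.9) and Prex1 (9.24). CPM are counts scaled to the library's reads on tested genes, with edgeR's TMM factors. None of the 4 passed the test of all KO libraries against control described below, which called 22.6% of all tested genes. In KO1 alone Prex1 was lower by a log2 fold change of -5.01 (adjusted p = 0.0220, edgeR). Zmynd8 was higher there by 0.89 (adjusted p = 0.0176, edgeR), where 31.6% of all genes passed. KO2 alone passed for neither gene, and its Prex1 values ran from 1.76 to 30.4 CPM. Tshz2, Dok5 and Hnf4a were at 0 counts in all 9 RNA-seq libraries. Ptprt had 0.244 and 0.615 CPM in the controls and 0 to 0.204 in the KO libraries. These 4 genes were too low to be tested. Of the 337 annotated genes of the window, 216 were the nearest promoter gene of at least 1 member of the 4T1 total pool, and 123 window genes were expressed highly enough to be tested, 87 of them with such a peak.

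In the RNA-seq data the 9 libraries held 25367211 to 61110585 reads on genes. The tested genes numbered 15023. Between the 7 KO libraries and the 2 controls 3392 of them, or 22.6%, passed an adjusted p of 0.1 in edgeR's quasi-likelihood test (p-values adjusted by Benjamini and Hochberg's method), and a gene is said to be called, or to have risen or fallen, only where it passed. Epithelial markers were high in every library (Epcam 104 to 488 CPM, Krt8 411 to 1410, Krt18 540 to 1410, Cdh1 354 to 940), and the markers of leukocytes, endothelium and fat cells (Ptprc, Pecam1, Adipoq) stayed at or below 0.905 CPM.

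MaTAR25 was at 0.768 and 0.915 CPM in the controls, which is 35 and 30 counts. In KO1 it had 2, 7 and 0 counts and in KO2 11, 1, 9 and 6, so that the KO libraries lay from 0 to 0.307 CPM. The KO libraries were all below the controls and did not overlap them. The paper picked KO clones by genomic PCR and qRT-PCR, and control clones for MaTAR25 levels like those of parental cells. This direction was thus fixed by selection, and the p-values that follow are no separate support for it. The permutation test also counts all libraries of KO1 and KO2 as independent. The log2 fold change was -2.63 (SE 0.82), with an adjusted p of 0.0561 by edgeR's quasi-likelihood test, and the two-sided exact permutation test on log2(CPM + 1) gave p = 0.0278, the smallest that 2 against 7 libraries allow. Leaving out control replicate 1 raised the adjusted p to 0.260, and leaving out control replicate 2 raised it to 0.300.

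Among the 123 tested genes of the window, 32 (26.0%) passed the test between KO and control, beside 22.6% of all tested genes. Of these, 17 rose and 15 fell (11.9% and 10.7% of all tested genes rose and fell). The median log2 fold change over the 123 genes was -0.01, beside 0.06 over all genes. For 51 of the 123 genes (41.5%) all KO libraries lay on one side of both controls, without overlap, beside 34.4% of all genes. Leaving out control replicate 1 or control replicate 2, so that 1 control was left and its spread was taken from the other libraries, lowered the count of called window genes to 3 and 6. Each KO clone set against the controls gave 36 called genes in KO1 (29.3%, beside 31.6% of all genes) and 48 in KO2 (39.0%, beside 31.4%).

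Tested genes nearest to a peak were at a higher expression level than those without one, and the share called differed as well. Of the 87 tested genes with a 4T1 total pool peak 26 were called (29.9%; 14 rose and 12 fell), and of the 36 without one 6 were called (16.7%). The median control level of these groups was 36.1 and 7.19 CPM, and the part of expression level in this difference was not tested. When a gene counted as having a peak only if its body overlapped one, 19 of 71 (26.8%) and 13 of 52 (25.0%) were called. Of the 38 tested genes with a peak shared by all 3 lists, 9 were called (23.7%), beside the 22.6% of all genes.

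The share of called genes did not rise steadily towards MaTAR25. Within 500 kb 5 of 18 tested genes were called (27.8%, beside 22.6% of all genes), from 500 kb to 1 Mb 2 of 10, from 1 to 2 Mb 1 of 8, from 2 to 4 Mb 7 of 40 and from 4 to 8 Mb 16 of 46. Of the 5 within 500 kb, B4galt5 and Mocs3 rose and Gm14321, Pard6b and Rnf114 fell. For the clones apart, 7 of these 18 genes were called in KO1 (38.9%, beside 31.6% of all genes; 2 rose and 5 fell) and 9 in KO2 (beside 31.4% of all genes; 3 rose and 6 fell).

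**Figure D4:**
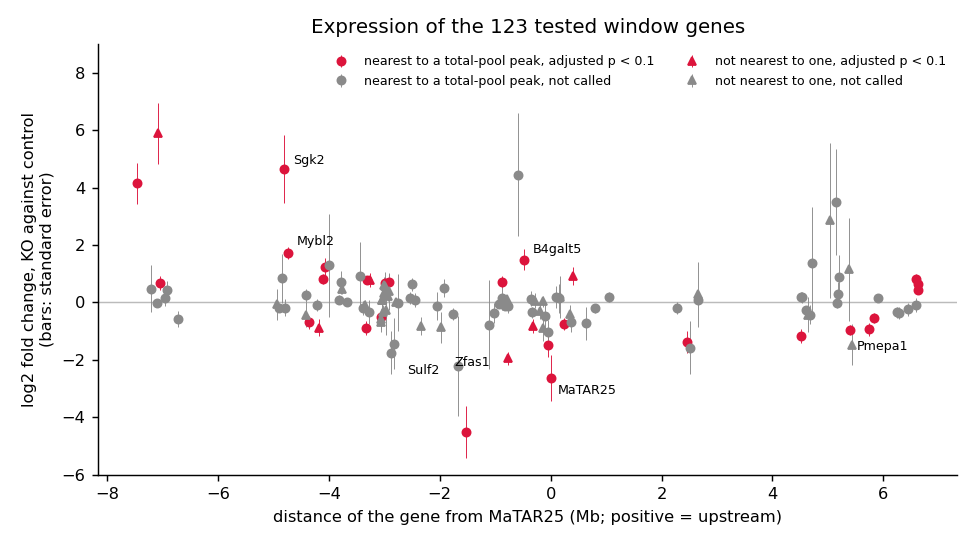
Log2 fold change of KO against control with its standard error (vertical axis) for the 123 tested genes of the window against distance of the gene from MaTAR25 in Mb (positive is upstream); circles are genes nearest to a 4T1 total pool peak, triangles the others, and red marks an adjusted p under 0.1. The 17 called genes that rose and the 15 that fell lie along the window on both sides of MaTAR25.

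Of the 8 nearest tested protein-coding genes, 4 on each side of MaTAR25, 1 passed the test, beside 22.6% of all tested genes. Pard6b, a cell polarity protein, was at 122.0 and 108.0 CPM in the controls and had a lowest, median and highest value of 46.6, 71.6 and 82.4 in the KO libraries. No KO library reached the controls, and the log2 fold change was -0.76 (adjusted p = 0.0408, edgeR; 0.327 without control replicate 1 and 0.195 without control replicate 2). Snai1, a transcription factor of epithelial to mesenchymal transition, was at 14.7 and 15.0 CPM in the controls and at 10.4, 15.3 and 19.3 in the KO libraries (log2 fold change 0.07, adjusted p = 0.891, edgeR), and the groups overlapped. The log2 fold changes of Adnp, Tmem189, Ube2v1 and Ripor3, which did not pass the test, were -0.40, 0.03, -0.29 and 0.14.

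For Cebpb, a transcription factor, and Ptpn1, a tyrosine phosphatase, the clones differed. Cebpb was at 53.0 to 61.5 CPM in the controls and at 12.2, 22.7 and 54.5 in the KO libraries. Tmem189 on the opposite strand covers 908 of the 1504 bp of Cebpb. The RNA-seq kit does not mark strand, so reads of that stretch could come from either gene. Whether exons of both genes share it was not checked. The pooled change was -0.87 on the log2 scale (adjusted p = 0.249, edgeR), while KO1 alone gave -0.24 (adjusted p = 0.519) and KO2 -1.64 (adjusted p = 0.00232). Ptpn1 was at 100.3 to 102.7 CPM in the controls and at 57.0, 139.6 and 157.4 in the KO libraries, and on the log2 scale KO1 differed from the controls by -0.52 (adjusted p = 0.0562, edgeR) and KO2 by 0.57 (adjusted p = 0.0371). Both clone differences passed edgeR's test of KO1 against KO2, which called 19.6% of all genes, with adjusted p = 0.00655 for Cebpb and 0.00474 for Ptpn1.

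**Figure D5:**
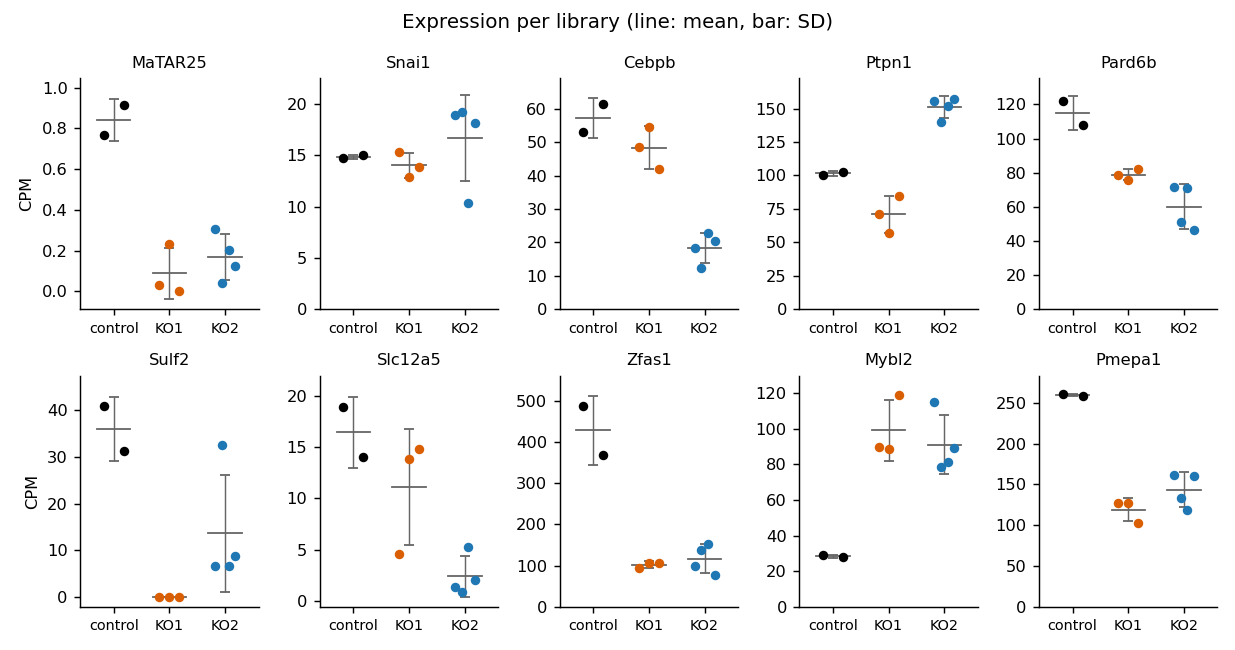
Expression in CPM (linear vertical axes) of 10 named genes in each of the 9 RNA-seq libraries, in control, KO1 and KO2, with the mean of each group as a line and its SD as a bar. MaTAR25, Pard6b, Zfas1 and Pmepa1 lie below the controls in all 7 KO libraries, Sulf2 is at 0 in the 3 KO1 libraries, and the clones lie apart for Cebpb and Ptpn1.

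The lincRNA gene Gm14321, about 45 kb downstream of MaTAR25, was the nearest promoter gene of 2 members in each list. The 2 odd-pool members, of scores 21.8 and 26.0, overlapped no peak of either total pool. Gm14321 fell. It was at 2.20 and 1.62 CPM in the controls and at 0.365 to 0.976 in the KO libraries, without overlap, with a log2 fold change of -1.47 (adjusted p = 0.0401, edgeR). Rnf114, a ubiquitin ligase, was at 99.3 and 100.9 CPM in the controls and at 41.0 to 75.1 in the KO libraries (log2 fold change -0.81, adjusted p = 0.0483, edgeR). Mocs3, an enzyme of molybdenum cofactor synthesis, was at 2.61 and 2.87 CPM in the controls and at 4.02 to 6.18 in the KO libraries (log2 fold change 0.92, adjusted p = 0.0722, edgeR). Rnf114 held 1 member, of the odd pool (rank 27461), and was nearest to no member of either total pool, and Mocs3 was nearest to no member of any list. All 3 calls were lost without control replicate 1 (adjusted p 0.339 for Gm14321, 0.277 for Rnf114 and 0.381 for Mocs3, edgeR) and without control replicate 2 (0.169, 0.278 and 0.321), and that of Mocs3 also without any 1 of the 3 KO1 libraries (adjusted p 0.109 to 0.118, edgeR).

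The genes under or nearest to the highest peaks away from MaTAR25 differed in their expression. Sulf2 was at 40.9 and 31.2 CPM in the controls and at 0 counts in all 3 KO1 libraries, at least 362-fold lower than the control mean of 36.1 CPM when 3 counts per library are taken as the floor. In KO2 it was at 6.61, 32.5, 6.56 and 8.73 CPM (237, 771, 290 and 427 counts), so that 1 KO2 library reached the control range. The pooled test gave an adjusted p of 0.417 (edgeR). Slc12a5 was at 18.9 and 14.0 CPM in the controls and at 0.842, 4.59 and 14.8 (lowest, median, highest) in the KO libraries, with a log2 fold change of -1.43 (adjusted p = 0.294, edgeR). By clone, KO2 was lower by a log2 fold change of -2.78 and passed the test (adjusted p = 0.0163, edgeR), while KO1 stood at -0.57 (adjusted p = 0.591). Arfgef2 (log2 fold change -0.05) and Slc9a8, a sodium and proton exchanger that is nearest to a high peak but holds none (0.13), did not pass the test, and Hnf4a and Tshz2 were at 0.

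Sgk2, Mybl2, B4galt5 and Ada were among the window genes that rose most with no overlap between the groups and a mean of at least 1 CPM. Mybl2, a transcription factor of dividing cells, was at 29.0 and 27.8 CPM in the controls and at 78.7, 89.4 and 118.8 in the KO libraries (log2 fold change 1.74, adjusted p = 0.00168, edgeR). B4galt5, a galactosyltransferase, was at 52.2 and 47.9 CPM and at 84.8, 118.3 and 216.9 (1.48, adjusted p = 0.0233, edgeR). The kinase Sgk2 rose by 4.65 on the log2 scale (adjusted p = 0.0263, edgeR), from control levels of 0.244 to 0.285 CPM to 0.927 to 14.8 CPM in the KO libraries. Ada, adenosine deaminase, rose by 1.25 on the log2 scale (adjusted p = 0.0199, edgeR). Mybl2 kept its call in all 9 fits that left out 1 library, where its highest adjusted p was 0.0425. Sgk2, B4galt5 and Ada lost theirs without a control replicate, with a highest adjusted p of 0.221 for Sgk2, 0.207 for B4galt5 and 0.216 for Ada.

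Above a mean expression of 1 CPM, the 5 genes that fell most were Zfas1, Fam210b, Pmepa1, Ppp4r1l-ps and Dbndd2. Zfas1, a noncoding host of small nucleolar RNAs, was at 487.0 and 369.1 CPM in the controls and at 76.4, 106.5 and 153.4 in the KO libraries (log2 fold change -1.95, adjusted p = 0.00125, edgeR). It shares 82 of its 2929 bp with Znfx1 on the opposite strand. Pmepa1, a membrane protein that dampens TGF-beta signalling, was at 260.8 and 258.7 CPM in the controls and at 102.9, 128 and 161 in the KO libraries (-0.97, adjusted p = 0.00637, edgeR). Fam210b, Ppp4r1l-ps and Dbndd2 fell by 1.16, 0.93 and 0.88 on the log2 scale (adjusted p = 0.0137, 0.0216 and 0.0401, edgeR), and Dbndd2 shares its position with Gm20458. Zfas1 kept its call in all 9 fits that left out 1 library, where its highest adjusted p was 0.0387. The others lost theirs without a control replicate, with a highest adjusted p of 0.105 for Pmepa1, 0.220 for Fam210b, 0.245 for Ppp4r1l-ps and 0.283 for Dbndd2.

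A list of 48 genes of the segment often gained in breast cancer was written for this report, with earlier results of these data known. Of these, 47 lay in the window, 40 were tested and 6 (15.0%) were called, beside 22.6% of all genes. B4galt5, Cse1l, Mybl2 and Plcg1 rose and Pmepa1 and Rab22a fell. Cse1l, a nuclear export factor, and Plcg1, a phospholipase of receptor signalling, rose by 0.71 and 0.68 on the log2 scale (adjusted p = 0.0533 and 0.0925, edgeR), and Rab22a, a GTPase of endosomes, fell by 0.53 (adjusted p = 0.0562, edgeR). On the opposite strand Plcg1 overlaps Zhx3 and Gm27206, and Rab22a overlaps Mir6340. The median log2 fold change of the 40 genes was -0.10. Without a control replicate the adjusted p rose to at most 0.350 for Cse1l, 0.418 for Plcg1 and 0.376 for Rab22a. Plcg1 kept its call in 2 of the 9 fits that left out 1 library and lost it also without KO1 replicate 1 or 2 or KO2 replicate 1, 3 or 4 (adjusted p 0.101 to 0.128, edgeR).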

How the data were processed

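Per the study's methods, ChIRP reads were aligned with Bowtie2 to GRCm38 and differential peaks were called with HOMER against the Ppib pulldown (at least 50-fold). The peaks were annotated with GENCODE vM16. Replicates of a list were pooled before peak calling, and the samples hold 1 Ppib library for each cell source. The deposited peak score is used only within a list. The deposited RNA-seq counts came from STAR and HTSeq with GENCODE vM5, from a kit that does not mark strand. Of the reads, 33.9 to 37.0% were not on genes, and 1 KO2 table listed each gene 3 times and was used once. Gene positions are from GENCODE vM21. Distances run between the nearest ends of peak and gene. Sequences were read from GRCm38 and from the study's oligo and guide lists.

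Counts were tested with edgeR 4.0.16 (quasi-likelihood, TMM, filterByExpr, Benjamini-Hochberg over all tested genes, adjusted p under 0.1), on 7 KO against 2 control libraries, with a 3-group fit for the clones. DESeq2 1.42.0, other scalings, filters, score limits, overlaps and left-out libraries were alternatives. The test was checked on simulated counts. Named genes were MaTAR25, Snai1, Cebpb and Ptpn1, the 4 nearest tested protein-coding genes on each side, the genes of the 10 highest 4T1 total pool peaks, the 5 genes that rose and 5 that fell most without overlap (mean of at least 1 CPM), and called members of the list for the gained segment; Gm14321, Rnf114, Mocs3 and the genes with many peaks were added after their values were seen. Same-numbered libraries did not deviate together (correlations -0.149 to 0.0429), so numbers were not treated as pairs. The members, lists and rules were chosen with earlier results of these data known. The even-pool list was not used here. One gene that the rule names is not reported here.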

Additional observations from a re-analysis of the deposited data

Results flagged for a closer look

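Over 29 named genes, the 4 KO2 libraries and the 7 KO libraries were each examined, 58 groups in all, and 5 had 1 library far from the rest, where chance gives about 1 in 20. Ada was lowest in KO2 replicate 4, at 8.75 CPM. Cse1l was lowest in KO2 replicate 4, at 156.1 CPM. Snai1 was lowest in KO2 replicate 3, at 10.4 CPM. Sulf2 was highest in KO2 replicate 2, at 32.5 CPM, both within KO2 and within all KO libraries.

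The clones differed by edgeR's test of KO1 against KO2 for 9 of these genes, where 19.6% of all genes were called. Adjusted p was 0.00436 for Sulf2, at 0 counts in KO1, 0.00474 for Ptpn1 (log2 difference KO1 minus KO2 -1.09), 0.00655 for Cebpb (1.40), 0.0434 for Rnf114 (0.58), 0.0456 for Slc12a5 (2.21), 0.0486 for Ripor3 (-1.21), 0.0578 for Ppp4r1l-ps (0.52), 0.0681 for B4galt5 (-0.72) and 0.0847 for Gm14321 (-0.96).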

How the results depend on the processing

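The peak lists hold no replicates and the RNA-seq only 2 controls, which is the main limit. Leaving out each library in turn gave 462 to 3976 called genes in all, 3 to 34 in the window, 2 to 28 with a 4T1 total pool peak, 14 to 42 for KO1 and 12 to 49 for KO2. The lowest came without control replicate 1 (462, 3, 2, 14 and 12), and those without control replicate 2 were 574, 6, 4, 15 and 20. Of the 18 called named genes, Mybl2 and Zfas1 kept their call in all 9 fits. At an adjusted p under 0.05, 2235 genes were called in all and 21 in the window. With the replicate number as a block, although the numbers do not pair the libraries, 1952 genes were called in all, 18 in the window and 15 with a peak. No other setting (DESeq2, other scaling, no filter) moved a count by over 1.5 times.

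The log2 fold change of Ripor3 turned to -0.27 under the block, -0.00075 without control replicate 2 and -0.0066 without KO2 replicate 3, and that of Tmem189 to -0.02 and -0.0075 without KO1 replicate 1 and KO1 replicate 3, with ranges over the left-out libraries of -0.0066 to 0.31 and -0.02 to 0.10. The cause was not tested.

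Among the 1000 highest peaks (ties kept), 0.799% (odd) and 0.896% (NDL) lay in the window, and 25.0% (odd), 25.0% (4T1 total) and 33.3% (NDL) of those lay within 1 Mb, which is 2 of 8, 2 of 8 and 3 of 9 peaks and in each list includes both peaks on the gene. At a score of at least 100, 18.1% of odd members lay within 1 Mb and 0.734% of NDL peaks in the window. Oligo matches of 10 or more bases were in 69.2%, 65.2% and 64.4% of odd, 4T1 total and NDL members, and of 14 or more in 3.37%, 3.37% and 3.27%. TGG runs of 3 units were in 3.15%, 10.1% and 13.1%, and of 6 units in 0.225%, 1.93% and 2.58%. With scores of at least 100 in both lists, 36.2% of odd members overlapped the 4T1 total pool and 26.7% NDL, 30.4% of 4T1 total members overlapped the odd pool, and 81.4% of NDL members the 4T1 total pool. Members with no oligo match, an alternative chosen after seeing the data, overlapped less: 32.9% of odd members overlapped NDL, and 29.7% of 4T1 total and 23.6% of NDL members the odd pool. The other 31 of 57 peak values moved by less than their interval.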
